A study of Mus musculus with 5 samples.

Results

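The 10 heterogeneous nuclear ribonucleoprotein (hnRNP) genes Hnrnpa1, Hnrnpa2b1, Hnrnpc, Hnrnpd, Hnrnpf, Hnrnph1, Hnrnpk, Hnrnpl, Hnrnpm and Hnrnpu were examined in ribosome profiling data from mouse embryonic stem cells (mESCs). They were chosen by gene symbol, and all 10 were found among the 53560 gene symbols of the deposited table. Of their 134 transcripts, among 135276 deposited, 69 are annotated as protein-coding, 33 as retained introns, 17 as processed transcripts and 15 as targets of nonsense-mediated decay. For each gene, the protein-coding transcript with the highest mean level over all libraries stands for the gene, and is called its main transcript. Ribosome-protected fragments were counted in 3 standard RIBO-seq libraries, in which 80S ribosomes were spun through sucrose, and in 2 AHARIBO RIBO-seq libraries, in which ribosomes were captured through nascent peptides carrying L-azidohomoalanine (AHA), a methionine analog that was biotinylated and bound to beads. In the labels, all libraries came from mESCs kept in medium with serum and LIF, pre-treated with cycloheximide and digested with RNase I, and the replicates are described as biological. The standard libraries had between 6403651 and 9110668 counts without duplicates, and the AHARIBO libraries 9972892 and 11150527.

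hnRNPs are abundant nuclear proteins that coat newly made transcripts and take part in their splicing, export, stability and translation. Most bind RNA through RNA recognition motifs, while Hnrnpk uses KH domains and Hnrnpu binds RNA through RGG repeats and DNA through a SAP domain. Several of these genes have many processed pseudogenes, and several are known to control their own mRNAs by alternative splicing.

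As a check of the cells, all 8 mESC marker genes were above 1 CPM (counts scaled to a common library size) in every library, and their summed level was 1265 to 1361 CPM in the standard and 1158 to 1267 CPM in the AHARIBO libraries. Of these 8 genes 2 were lower in AHARIBO and 0 higher at an adjusted p of 0.05, beside 2.53% of all genes lower and 2.59% higher. Sox2 had 116, 118 and 118.5 CPM in the standard and 87.8 and 101 CPM in the AHARIBO libraries (log2 fold change, AHARIBO over standard here and in all that follows, of -0.32, SE 0.080, edgeR quasi-likelihood test, adjusted p = 0.0130). Klf4 had 79.1, 73.3 and 81.7 CPM against 60.4 and 62.6 CPM (log2 fold change -0.34, SE 0.082, edgeR adjusted p = 0.00836). In both genes the AHARIBO values lay below all standard values. By level per kb of transcript, Dppa5a, Pou5f1 and Zfp42 led, with 319, 181 and 98.2 CPM per kb. None of the 6 fibroblast or 8 early lineage markers was above 1 CPM in every library. The summed levels of fibroblast markers were 2.38 to 3.36 CPM in the standard and 2.54 to 3.30 CPM in the AHARIBO libraries, and those of early lineage markers 3.97 to 5.87 and 3.59 to 4.69 CPM.

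The capture step of AHARIBO rests on AHA taking the place of methionine, so the beginnings of the 10 coding sequences are shown, from the start codon on, as read from the Gencode M21 transcripts (GRCm38). Capitals mark methionine codons in frame.
Hnrnpa1: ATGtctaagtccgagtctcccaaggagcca
Hnrnpa2b1: ATGgagagagaaaaggaacagttccgaaag
Hnrnpd: ATGtcggaggagcagttcggaggggacggg
Hnrnpc: ATGgctagcaatgttaccaacaagacagat
Hnrnpf: ATGATGctgggccctgagggaggtgaaggc
Hnrnph1: ATGATGctgggagcagaaggcggagagggc
Hnrnpk: ATGgagaccgaacagccagaagaaaccttc
Hnrnpl: ATGtcgcggaggctgctgccccgggcggag
Hnrnpm: ATGgcggcaggggtcgaagcggcagccgaa
Hnrnpu: ATGagttcttcgcctgttaatgtcaagaag

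The closely related Hnrnpf and Hnrnph1 were the 2 members with a second methionine at codon 2. In the others the second methionine codon came between codon 14 (Hnrnpc) and codon 46 (Hnrnpa1). Hnrnpm, whose protein is rich in methionine, had 62 methionine codons among 729 codons, without the stop codon. Hnrnpa1 had the fewest, 6 of 373. No relation between methionine codons and the difference between the methods was tested.

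Among members that bind RNA through paired RNA recognition motifs, the main transcript of Hnrnpa1, a splicing repressor, was Hnrnpa1-201 (chr15:103240432-103244955, plus strand, 11 exons). It had 185, 183 and 202 CPM in the standard libraries and 159 and 181 CPM in the AHARIBO libraries. Both AHARIBO values lay below all standard values. The log2 fold change was -0.16 (SE 0.079, edgeR adjusted p = 0.259).

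Hnrnpa2b1, which binds RNA in splicing and transport, had Hnrnpa2b1-202 as its main transcript (chr6:51461124-51469845, minus strand, 12 exons). Its levels were 188, 176 and 196 CPM in the standard libraries and 169 and 194 CPM in the AHARIBO libraries, so the groups overlapped. The log2 fold change was -0.04 (SE 0.079, edgeR adjusted p = 0.842).

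Hnrnpd, also known as AUF1, binds AU-rich elements and affects mRNA decay. Its main transcript Hnrnpd-211 (chr5:99955935-99978938, minus strand, 9 exons) had 147, 131 and 140 CPM in the standard libraries and 114 and 124 CPM in the AHARIBO libraries. Both AHARIBO libraries lay below every standard library. Its log2 fold change of -0.23 (SE 0.079) had the largest size among the 10 main transcripts and did not pass the threshold (edgeR adjusted p = 0.0816).

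Hnrnpc, which binds uridine tracts, was read from Hnrnpc-201 (chr14:52073377-52104028, minus strand, 9 exons). It had 116, 110 and 118 CPM in the standard libraries and 118 and 121 CPM in the AHARIBO libraries, and the groups overlapped. The log2 fold change was 0.06 (SE 0.077, edgeR adjusted p = 0.749).

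Hnrnpf and Hnrnph1 bind guanine tracts, and they were far apart in level. Hnrnpf-209 (chr6:117917294-117925621, plus strand, 3 exons) had 301, 303 and 330 CPM in the standard and 274 and 305 CPM in the AHARIBO libraries. Hnrnph1-201 (chr11:50377719-50386527, plus strand, 14 exons) had 232, 213 and 135 counts in the standard and 279 and 271 counts in the AHARIBO libraries, a mean of 23.6 and 25.7 CPM. For both genes the groups overlapped, with log2 fold changes of -0.10 (SE 0.077, edgeR adjusted p = 0.506) for Hnrnpf and 0.11 (SE 0.100, edgeR adjusted p = 0.613) for Hnrnph1.

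Hnrnpk, which binds cytosine-rich sequence, had Hnrnpk-224 as main transcript (chr13:58391235-58402516, minus strand, 16 exons), with 194, 193 and 207 CPM in the standard and 184 and 198 CPM in the AHARIBO libraries. Hnrnpl, which binds CA repeats, had Hnrnpl-211 (chr7:28808541-28822266, plus strand, 14 exons), with 190, 191 and 207 CPM in the standard and 179 and 196 CPM in the AHARIBO libraries. In both, AHARIBO replicate 1 was lowest, AHARIBO replicate 2 lay within the standard range, and the log2 fold changes were -0.05 for Hnrnpk and -0.06 for Hnrnpl.

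Hnrnpm, a splicing regulator, was read from Hnrnpm-206 (chr17:33646233-33686860, minus strand, 16 exons), with 139, 134 and 136 CPM in the standard and 121 and 129 CPM in the AHARIBO libraries. Hnrnpu, or scaffold attachment factor A, was read from Hnrnpu-201 (chr1:178324343-178337797, minus strand, 14 exons), with 327, 305 and 343 CPM in the standard and 280 and 301 CPM in the AHARIBO libraries. In both genes the AHARIBO values lay below all standard values. The log2 fold changes were -0.12 (SE 0.077, edgeR adjusted p = 0.420) for Hnrnpm and -0.16 (SE 0.077, edgeR adjusted p = 0.248) for Hnrnpu.

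In all, 0 of the 10 main transcripts passed an adjusted p of 0.05 in edgeR, against 5.12% of the main transcripts of all 12361 genes tested. At an unadjusted p of 0.05 there were 3 (Hnrnpa1, Hnrnpd and Hnrnpu), against 19.4% of all genes. DESeq2 also called 0, but it called only 0.46% of all transcripts. The CPM values of the methods did not overlap in 4 members, each lower in AHARIBO, against 34.3% of all genes in either direction. The log2 fold change was below 0 in 8 of 10 members and in 50.6% of all genes. Without AHARIBO replicate 1 it was below 0 in 5 members and turned in 3, Hnrnpa2b1, Hnrnpk and Hnrnpl. This direction also depended on the handling of duplicate reads: with duplicates kept, it was below 0 in 3 members and turned in 5, Hnrnpa1, Hnrnpa2b1, Hnrnpf, Hnrnpk and Hnrnpl. Between 35.5% (Hnrnpm, AHARIBO replicate 2) and 68.9% (Hnrnpa1, AHARIBO replicate 1) of a main transcript's counts were duplicates, apart from Hnrnph1 with 10.0% to 21.8%. In 9 of 10 members the share of duplicates was highest in AHARIBO replicate 1, and in 8 of 10 members the level without duplicates was lowest there. Over all counts, too, duplicates were most frequent in AHARIBO replicate 1, with 47.7% against 43.3% to 44.9% in the other libraries. How many of all genes show either trait was not counted. The part of duplicates in the difference was not tested.

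**Figure D1:**
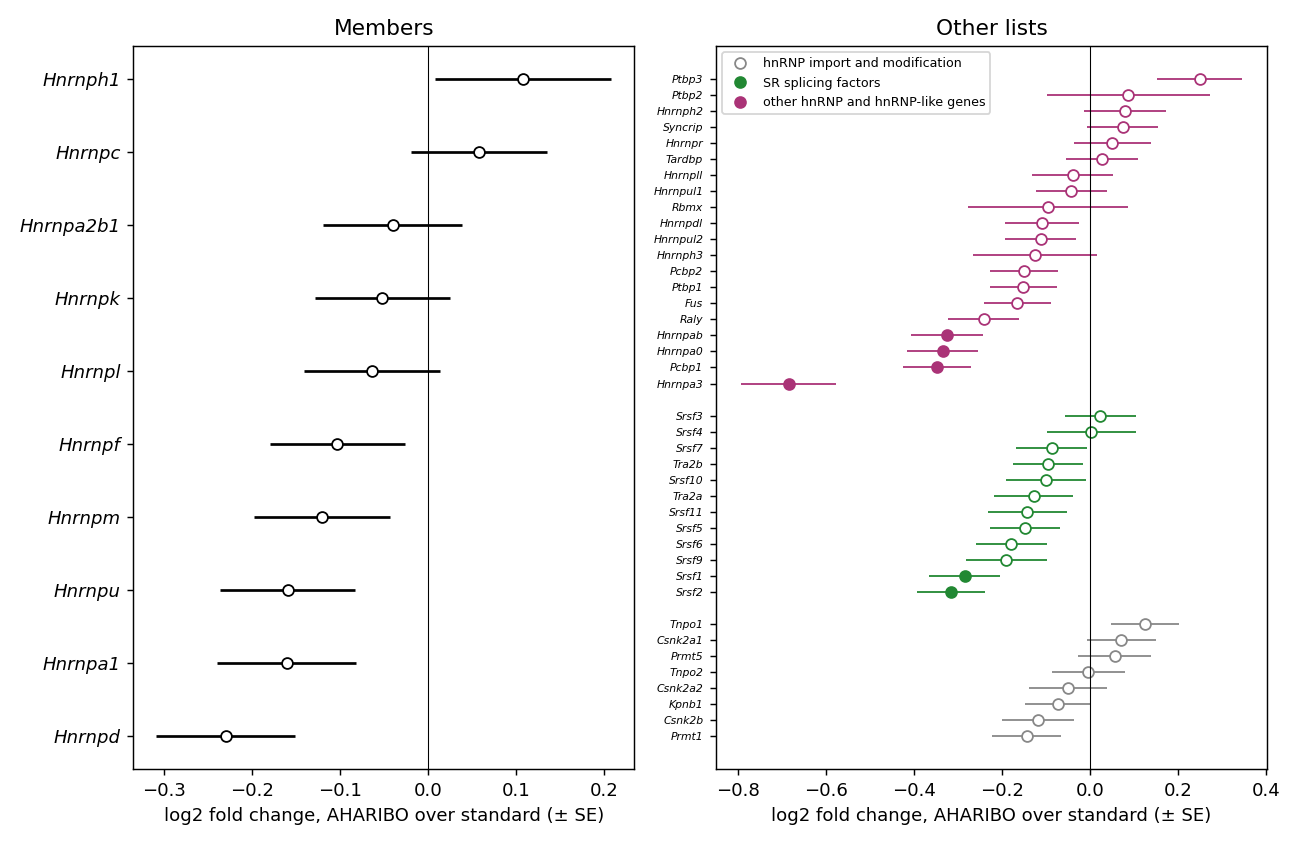
Log2 fold change of the main transcript, AHARIBO over standard RIBO-seq, with its SE (x axis), for the 10 members (left) and the genes of 3 other lists (right). Filled points have an adjusted p under 0.05 in edgeR: none of the members, 4 other hnRNP genes and 2 SR splicing factors.

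The summed level of the 10 main transcripts was 1811, 1749 and 1902 CPM in the standard libraries and 1623 and 1776 CPM in the AHARIBO libraries. AHARIBO replicate 1 was lowest and AHARIBO replicate 2 lay within the standard range. The difference of -121 CPM was within the spread of the libraries (two-sided exact permutation test, p = 0.3, where 0.1 is the smallest p that 10 splits can give), and with duplicates kept it was 44.1 CPM.

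Levels were compared between genes per length. Per kb of transcript, Hnrnpf stood highest, with 137 ± 7.3 CPM per kb (SD, n = 3) in standard and 127 ± 9.7 CPM per kb (SD, n = 2) in AHARIBO libraries. It was followed by Hnrnpa2b1, Hnrnpa1, Hnrnpl, Hnrnpk, Hnrnpc, Hnrnpu, Hnrnpm and Hnrnpd. Hnrnph1 stood lowest, with 10.6 ± 1.0 CPM per kb (SD, n = 3) in standard and 11.6 ± 0.84 CPM per kb (SD, n = 2) in AHARIBO libraries. Of the neighbours in this order, Hnrnpa2b1 and Hnrnpa1, Hnrnpl and Hnrnpk, and Hnrnpc and Hnrnpu had overlapping library values.

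Among 12361 genes, the members lay at or above the percentile 87.6 (Hnrnpd) on this scale, except Hnrnph1 at 78.4. Per kb of coding sequence, 5 members kept their rank. Hnrnpd, whose main transcript is 6811 nt long with 1065 nt of coding sequence, went from rank 9 to 7, and Hnrnpl from 4 to 8. On that scale, Hnrnpf remained first and Hnrnph1 last, while each neighbouring pair from Hnrnpa2b1 to Hnrnpl overlapped.

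**Figure D2:**
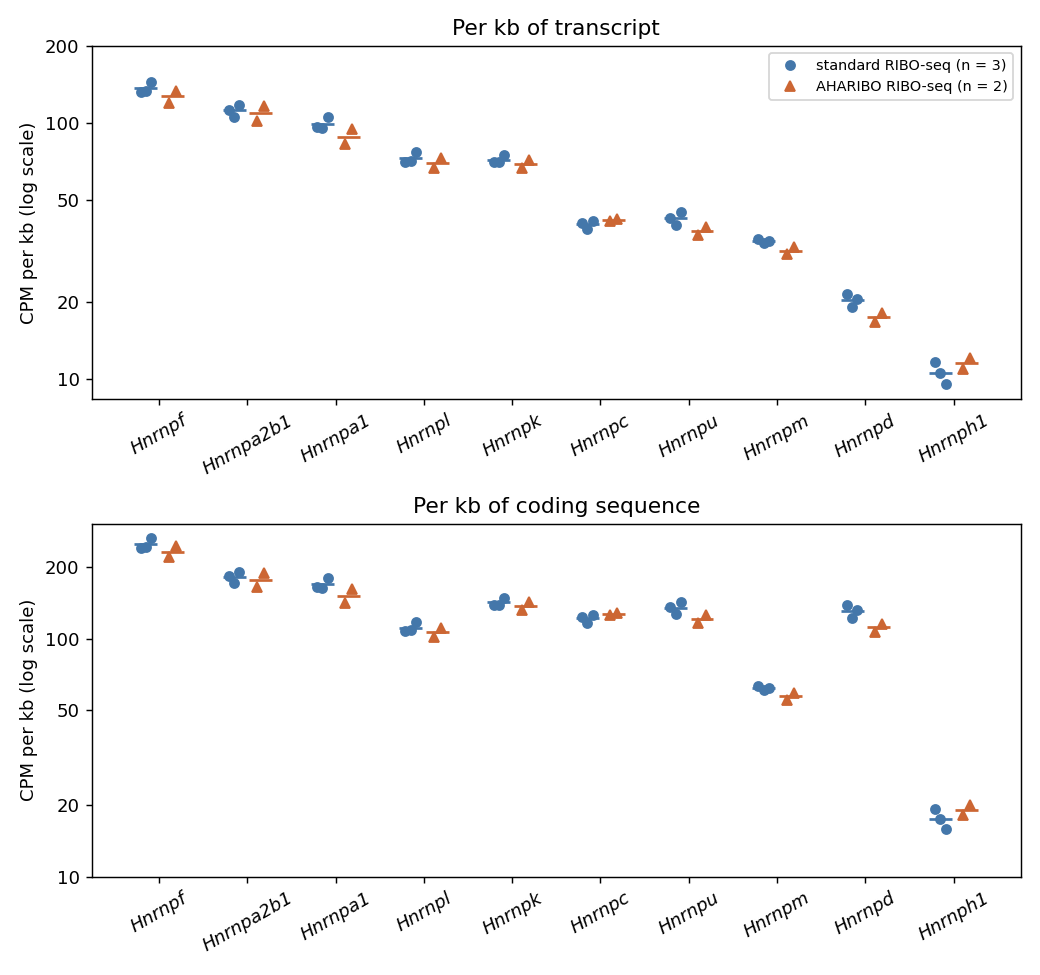
CPM per kb (y axis, log scale) of each member's main transcript in every library, per kb of transcript (top) and of coding sequence (bottom), with group means as bars. Hnrnpf is highest and Hnrnph1 lowest on both scales, and Hnrnpd stands among the middle members only per kb of coding sequence.

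Reads of several members cannot be told from those of pseudogenes. Of all 30-nt windows of the Hnrnpf coding sequence, 97.8% also occurred in transcripts of other genes. The share was 86.1% for Hnrnpk, 83.6% for Hnrnpa1, 59.8% for Hnrnpc, 20.7% for Hnrnpa2b1, and under 10 percent for Hnrnpl, Hnrnph1 and Hnrnpd. No coding window was shared for Hnrnpm and Hnrnpu, but outside the coding sequence the main transcript of Hnrnpm shared 1140 windows, 29.2% of all its windows, with March2. The pseudogenes carried counts too. Gm6430, which shares 81.3% of the Hnrnpf coding windows, had 202, 199 and 212 CPM in the standard and 173 and 202 CPM in the AHARIBO libraries. Gm10052, with 83.0% of the Hnrnpa1 coding windows, had 157, 154 and 168 CPM in the standard and 133 and 153 CPM in the AHARIBO libraries. The levels of Hnrnpf, Hnrnpk, Hnrnpa1 and Hnrnpc are therefore uncertain.

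Isoforms held from a small part to about all of the main transcript's counts. Hnrnpa1-202 shares 98.5% of its windows with the main transcript. It held 98.4%, 98.2% and 98.1% of the main transcript's counts in the standard and 97.8% and 98.4% in the AHARIBO libraries. A read thus appears to be counted on every transcript it matches. Isoforms are therefore not independent, and a partial transcript reads out a region of the gene. Among the 69 protein-coding transcripts of the members, 1 passed the threshold, Hnrnpd-207, which was lower in AHARIBO, as were 2.24% of all 66972 transcripts tested. Among 64 tested transcripts annotated as not protein-coding, 2 passed, Hnrnpa2b1-211 and Hnrnpa2b1-208, both higher, as were 2.27% of all transcripts. In either direction, 4.51% of all transcripts passed, and 4.72% of those annotated as not protein-coding. With duplicates kept, 3 protein-coding and 11 other transcripts of the members passed, beside 3.43% of all transcripts tested in that setting.

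Hnrnpd-207 (chr5:99967308-99978859, minus strand) has its outer ends at nt 80 and 684 of the main transcript and is 478 nt long, so it leaves out a part of the stretch between them. The coding sequence of the main transcript runs from nt 315 to 1379. It had 613, 524 and 420 counts in the standard and 475 and 502 counts in the AHARIBO libraries, or 68.7, 57.8 and 66.6 CPM against 41.6 and 50.1 CPM. Both AHARIBO values were below all standard values, and the log2 fold change was -0.49 (SE 0.090, edgeR adjusted p = 0.000355). Without AHARIBO replicate 1 it was -0.36, with an adjusted p of 0.0744 in edgeR.

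Relative to the main transcript, which takes out the level of the gene, Hnrnpd-207 held 46.6%, 44.2% and 47.5% of the counts in the standard libraries and 36.3% and 40.5% in the AHARIBO libraries. Higher percentages in AHARIBO were found both in transcripts that end further downstream and in one that begins further upstream. Hnrnpd-209, annotated as a target of nonsense-mediated decay, has its outer ends on the main transcript at nt 783 and 1595, with gaps, and held 16.7%, 17.7% and 16.5% in the standard against 25.2% and 23.7% in the AHARIBO libraries. Hnrnpd-208, of the same type, has its outer ends at nt 587 and 1743, with gaps, and held 26.2%, 28.4% and 26.3% against 37.9% and 36.9%. Hnrnpd-210, a protein-coding transcript with outer ends at nt 5 and 930 and gaps between them, held 22.7%, 22.8% and 24.3% against 29.8% and 28.5%. Hnrnpd-205, with outer ends at nt 315 and 1414, held 45.7%, 46.1% and 43.4% against 52.0% and 46.4%. The groups did not overlap in any of these 4 transcripts, beside 31.3% of 47429 other transcripts over all genes. Hnrnpd-208, Hnrnpd-209 and Hnrnpd-210 were named after their values were seen, so no support is drawn from their separation. In Hnrnpd-201, Hnrnpd-202 and Hnrnpd-203 the groups overlapped. For each of the 4, p = 0.1 in the two-sided exact permutation test is the smallest this design allows. The level of Hnrnpd-209 itself had a log2 fold change of 0.29 (SE 0.095, edgeR adjusted p = 0.0618). With duplicates kept, Hnrnpd-209 held 13.7%, 14.9% and 13.7% in the standard against 24.8% and 22.8% in the AHARIBO libraries.

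In Hnrnpa2b1, the 2 transcripts past the threshold lay at the end of the gene. Hnrnpa2b1-211 (chr6:51461145-51463184, minus strand) is a retained intron that overlaps nt 1216 to 1641 of the main transcript, past the end of the coding sequence at nt 1192, and 48.0% of its windows are in no protein-coding transcript of the gene. It had 9, 2 and 1 counts in the standard and 38 and 26 counts in the AHARIBO libraries. Every AHARIBO value was above every standard value, with a log2 fold change of 2.56 (SE 0.417, edgeR adjusted p = 4.5e-05) that rests on few reads: 2 standard libraries were under the 3 counts taken as the floor. It was 3.84 without standard replicate 1 and 2.16 without standard replicate 2, and passed the threshold without any 1 library. Hnrnpa2b1-208 (chr6:51462800-51464160, minus strand), a retained intron that overlaps nt 1062 to 1216, had 72, 76 and 57 counts in the standard and 130 and 124 in the AHARIBO libraries. Its log2 fold change was 0.49 (SE 0.137, edgeR adjusted p = 0.0268), and its adjusted p rose above 0.05 without standard replicate 1 (0.132), standard replicate 2 (0.0556), AHARIBO replicate 1 (0.118) or AHARIBO replicate 2 (0.117). DESeq2 gave neither transcript an adjusted p.

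In Hnrnpu, whose coding sequence shares no window with other genes, no transcript passed the threshold. Hnrnpu-203, a processed transcript over nt 1032 to 1638 in the middle of the coding sequence (nt 227 to 2626), held 16.2%, 15.5% and 14.0% of the main transcript's counts in the standard and 20.6% and 18.3% in the AHARIBO libraries. The AHARIBO values were above all standard values.

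The most abundant transcript of each other annotated type in each member made 15 transcripts, of which edgeR called 0 at an adjusted p of 0.05, with a lowest adjusted p of 0.123, beside 4.72% of all transcripts annotated as not protein-coding. Among targets of nonsense-mediated decay, Hnrnpu-206 had a mean of 311 CPM in standard and 274 CPM in AHARIBO libraries. The means were 189 and 168 CPM for Hnrnpa1-203, 185 and 179 CPM for Hnrnpa2b1-207, 155 and 152 CPM for Hnrnpl-213, 92.4 and 88.6 CPM for Hnrnpk-203, and 62.8 and 58.5 CPM for Hnrnpd-205. These transcripts differ in length, so no order is read from these values. These 6 had log2 fold changes from -0.18 to -0.03. The retained introns were Hnrnpa2b1-213, Hnrnpl-212, Hnrnpk-206, Hnrnpc-208, Hnrnpu-204, Hnrnpm-208 and Hnrnpd-206, with log2 fold changes from -0.08 to 0.33 (Hnrnpd-206). The processed transcripts were Hnrnpu-203 and Hnrnph1-204, with 0.19 and 0.11.

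**Figure D3:**
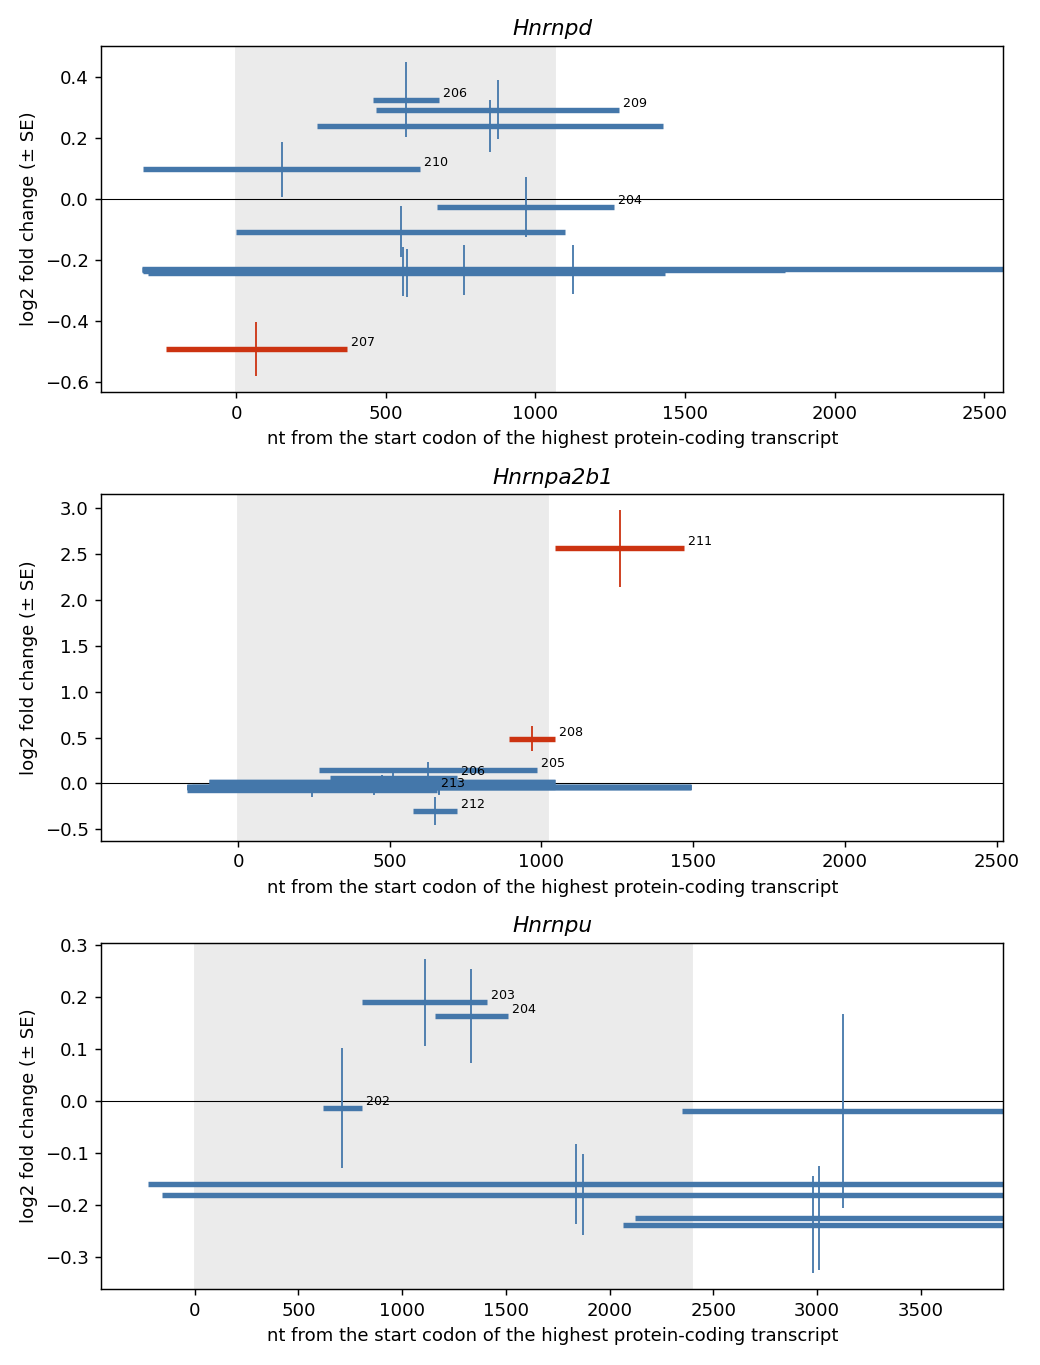
Log2 fold change with SE (y axis) of the tested transcripts of Hnrnpd, Hnrnpa2b1 and Hnrnpu that share windows with the main transcript, against the stretch between their outer ends on it (x axis, nt from the start codon, gaps included, cropped on the right), with the coding sequence shaded and transcripts with an adjusted p under 0.05 in red. In Hnrnpd, Hnrnpd-207 is lowest and Hnrnpd-206 and Hnrnpd-209 are highest.

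Over all members, 52 of 123 other transcripts had percentages of the main transcript that did not overlap between the methods, 40 of them higher and 12 lower in AHARIBO. Over all genes, 31.3% of 47429 did not overlap, 15% higher and 16.3% lower. With 1 library left out, 42 to 52 were higher and 17 to 27 lower, and with duplicates kept 42 and 17. Groups separate more easily with fewer libraries, and the share over all genes was not computed in these settings. The transcripts of a gene share reads, so these are not separate observations. By gene, they were 8 of 9 in Hnrnpf, 7 of 10 in Hnrnpd, 8 of 12 in Hnrnpa2b1, 5 of 8 in Hnrnpu, 7 of 12 in Hnrnpl, 12 of 33 in Hnrnpk, 2 of 4 in Hnrnpa1, 2 of 12 in Hnrnpc, 1 of 7 in Hnrnpm and 0 of 16 in Hnrnph1.

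**Figure D4:**
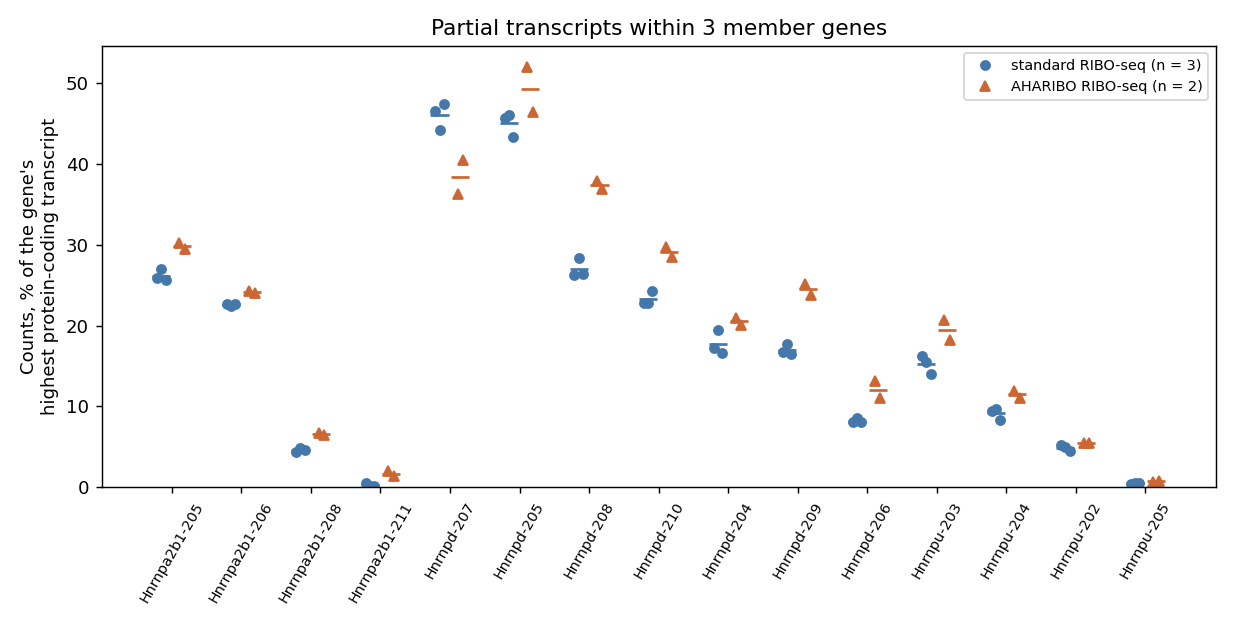
Counts on the 15 partial transcripts of Hnrnpa2b1, Hnrnpd and Hnrnpu whose library values did not overlap between the methods and averaged under 50% of the main transcript in standard libraries, as percent of the counts on the gene's main transcript (y axis) in every library, with group means as bars. These transcripts were chosen for not overlapping, so the separation shown follows from the choice. Hnrnpd-207 is lower in both AHARIBO libraries than in all standard libraries, and the 14 others are higher. Over all genes, 16.3% of other transcripts were lower and 15% higher in this way. The 50% cutoff leaves out Hnrnpa2b1-207, Hnrnpa2b1-213 and Hnrnpu-206, which are lower, and Hnrnpa2b1-204 and Hnrnpa2b1-210, which are higher.

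The share of a gene's counts on transcripts annotated as not protein-coding, in which a read counts once per transcript, was compared in the 9 members that have such transcripts. In Hnrnpd it was 20.5%, 21.5% and 19.9% in the standard and 25.4% and 23.8% in the AHARIBO libraries, a difference of 4.01 percentage points. In Hnrnpu it was 59.2%, 59.3% and 58.8% against 60.3% and 59.6%. In both genes the AHARIBO values were above all standard values, and in Hnrnpa1 and Hnrnpa2b1 they were below, by 0.121 and 0.329 percentage points. For each of these 4 genes the two-sided exact permutation p was 0.1, the smallest possible, and 0.25 after Benjamini-Hochberg adjustment over all 10 members, in which Hnrnpf, with no such transcript, entered with a p of 1. In the other members the groups overlapped. Over all genes with such transcripts, the groups did not overlap in 30.8% of 9136.

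Of 20 other hnRNP and hnRNP-like genes, 4 were lower in AHARIBO at an adjusted p of 0.05, 0 were higher and 16 did not pass, beside 2.53% of all genes lower and 2.59% higher. Hnrnpab, a relative of Hnrnpd, had 200, 185 and 217 CPM in the standard and 147 and 173 CPM in the AHARIBO libraries (log2 fold change -0.33, SE 0.082, edgeR adjusted p = 0.0119). Pcbp1, a KH protein that binds cytosine tracts like Hnrnpk, had 164, 165 and 172 CPM against 125 and 138 CPM (log2 fold change -0.35, edgeR adjusted p = 0.00462). Hnrnpa0 had 159, 147 and 154 CPM against 111 and 132 CPM (log2 fold change -0.33, edgeR adjusted p = 0.00881). Hnrnpa3 had the largest difference (log2 fold change -0.68, edgeR adjusted p = 2.42e-05), but 92.7% of the windows of its main transcript also occurred in other genes. In all 4, both AHARIBO values lay below all standard values. With counts summed over the protein-coding transcripts of a gene 0 of these 4 passed the threshold, beside 0.193% of all genes in that setting. With 1 library left out, the log2 fold change ranged from -0.86 to -0.51 for Hnrnpa3 and from -0.42 to -0.27 for Pcbp1. It ranged from -0.46 to -0.21 for Hnrnpa0 and from -0.44 to -0.21 for Hnrnpab. By level per kb of transcript, Hnrnpab, Pcbp1 and the splicing repressor Ptbp1 led this list, with 128, 83.5 and 59.9 CPM per kb. Pcbp2 had 59.7 CPM per kb, with library values that overlapped those of Ptbp1, so the order of these genes is not resolved.

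SR proteins often act in splicing as counterparts of hnRNPs. Of 13 SR splicing factors 12 were tested, and 2 were lower in AHARIBO, 0 higher, and 10 did not pass, beside 2.53% of all genes lower. Srsf2 had 167, 157 and 166 CPM in the standard and 131 and 131 CPM in the AHARIBO libraries (log2 fold change -0.32, edgeR adjusted p = 0.00948). Srsf1 had 92.1, 93.2 and 100.1 CPM against 74.5 and 81.6 CPM (log2 fold change -0.28, edgeR adjusted p = 0.0288). Neither passed without standard replicate 1, beside 1.76% of all transcripts in that setting, or with summed counts, beside 0.193% of all genes. DESeq2 called Srsf2 alone, beside 0.46% of all transcripts. With 1 library left out, the log2 fold change ranged from -0.34 to -0.30 for Srsf2 and from -0.35 to -0.22 for Srsf1. By level per kb of transcript, Srsf2, Srsf5 and Srsf7 led, with 79.1, 70.5 and 40.0 CPM per kb. The library values of Srsf2 and Srsf5 overlapped, as did those of Srsf7 and the next gene, Srsf3.

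Of 8 genes for the import and modification of hnRNPs, edgeR called 0, beside 5.12% of all genes. DESeq2 called 0 as well, beside 0.46% of all transcripts. An unadjusted edgeR p under 0.05 was found in 0 of the 8, beside 19.4% of all genes. Csnk2b, a subunit of casein kinase 2, the arginine methyltransferase Prmt1 and the importin Kpnb1 led by level, with 63.6, 60.2 and 42.7 CPM per kb of transcript. Their log2 fold changes were -0.12, -0.14 and -0.07. The library values per kb of Csnk2b and Prmt1 overlapped. The nuclear import receptor Tnpo1, which carries Hnrnpa1, had 122, 114 and 116 CPM in the standard and 127 and 129 CPM in the AHARIBO libraries, above all standard values, with a log2 fold change of 0.12 (SE 0.077, edgeR adjusted p = 0.398).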

How the data were processed

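The deposited table holds raw counts for each transcript, once with and once without duplicate reads, and transcript lengths. Per the methods and processing notes, reads were trimmed with Trimmomatic 0.36, reads matching rRNA or tRNA were removed, the remaining reads were mapped with STAR to Gencode M17 transcripts (GRCm38.p6), and antisense and duplicate reads were removed. How reads matching several transcripts were counted is not given in the sources used here, and these sources name no molecular identifiers and do not say how duplicates were defined. Counts without duplicates were used. There were 0 per-sample columns left unused.

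CPM was computed with TMM factors over all transcripts in edgeR 4.0.16 (R 4.3.3), and those reaching 1 CPM in any library were tested with the quasi-likelihood test, without a replicate block, with Benjamini-Hochberg adjustment over all of them. SEs were approximated as the size of the log2 fold change over the root of F. DESeq2 1.42.0 was an alternative. Both tests were tested on simulated data. Names and types came from Gencode M21 (134952 of 135276 transcripts matched). For 2 of 134 member transcripts the deposited length differed from M21 or the sequence was missing, and they were not placed on the main transcript. Single values were compared by a two-sided exact permutation test over the libraries.

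The members and the lists were chosen with earlier results of these data known. Named are all members by their main transcript, their other transcripts past the threshold and the most abundant of each annotated type, and of each other list with genes above 1 CPM in every library the genes past the threshold and the 3 highest per kb. Hnrnpd-208, Hnrnpd-209, Hnrnpd-210, Tnpo1, March2 and the pseudogenes were named after their values were seen, and the percent of the main transcript was added after seeing the data. Intervals and floors from counts cover counting error only.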

Additional observations from a re-analysis of the deposited data

How the results depend on the processing

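No main transcript of a member was called under any alternative. The direction was below 0 in 8 of 10 members under every alternative that used all libraries without duplicates. With duplicates kept, the log2 fold change turned to 0.19 for Hnrnpa1, 0.046 for Hnrnpa2b1, 0.069 for Hnrnpf, 0.11 for Hnrnpk and 0.034 for Hnrnpl, and the difference in summed level to 44.1 CPM. With 1 library left out it ranged from -0.26 to -0.066 for Hnrnpa1, from -0.18 to -0.026 for Hnrnpf, from -0.138 to 0.056 for Hnrnpa2b1, from -0.104 to 0.0024 for Hnrnpk and from -0.128 to 0.0014 for Hnrnpl, the values above 0 being those without AHARIBO replicate 1. The log2 fold change ranged from 0.037 to 0.185 for Hnrnph1, from 0.028 to 0.080 for Hnrnpc and from -0.163 to -0.076 for Hnrnpm. For Hnrnpd it ranged from -0.28 to -0.17, and for Hnrnpu from -0.21 to -0.11. The difference in summed level ranged from -195 to -44.3 CPM with 1 library left out.

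Calls among the members' protein-coding transcripts (1) went to 3 with duplicates kept, 0 at a stricter threshold (log2 fold change past 1.5, adjusted p of 0.01), and 0 to 3 with 1 library left out. Those among transcripts not protein-coding (2) went to 0 with DESeq2, which gave neither an adjusted p, 4 with library size alone, 11 with duplicates kept, 1 at the stricter threshold, and 1 to 2 with 1 library left out. Calls among other hnRNP genes (4) went to 1 with the replicate block, 0 with counts summed over protein-coding transcripts per gene, 0 at the stricter threshold, and 1 to 5 with 1 library left out. Calls among SR factors (2) went to 1 with DESeq2, 0 with the replicate block, 1 with duplicates kept, 0 with summed counts, 0 at the stricter threshold, and 0 to 2 with 1 library left out. Import and modification genes stayed at 0 throughout. The cause of these changes was not tested.

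Over all transcripts, edgeR called 3021, DESeq2 308, the replicate block 1792, summed counts 28 of 14494 genes, and fits without 1 library between 510 and 3829. Deviations of same-numbered libraries correlated at 0.042 and -0.076, and nothing in the labels pairs them. The paper describes its standard RIBO-seq as performed on the input, so whether same-numbered libraries share a lysate is not known. Of 9 members, 5 had a higher share on transcripts not protein-coding in AHARIBO, and 3 to 5 with 1 library left out. Of 10 ranks per kb, 5 were kept per kb of coding sequence, 2 with summed counts and 6 with duplicates kept. With 2 AHARIBO libraries, small differences cannot be resolved, and where 1 is left out the lone library is assumed to vary like the standard libraries.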
